A study of Mus musculus with 4 samples.

Results

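The 10 genes described here are 6 ligands of the epidermal growth factor and neuregulin family (Nrg1, Areg, Ereg, Hbegf, Btc and Tgfa) and the 4 ErbB receptors (Egfr, Erbb2, Erbb3 and Erbb4), out of 30905 genes in a single-cell RNA count matrix of mouse prostate. They were taken by name, as members of a family, and the family was picked with earlier results of these data known. Of the 10, 9 were found by symbol. Areg was taken by its identifier, ENSMUSG00000029378, because the deposited gene table lists that identifier under another symbol (Mcub), and its values rest on that identification.

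Dissociated prostates gave 4 libraries, 1 for each group, of unique molecular identifiers (UMIs, which count captured RNA molecules) read from the 3' ends of transcripts. The Trp53-intact mice were 4 months old and the Trp53-deleted mice (Trp53PC-/-) 3.5 months old. The Trp53-intact ADT and Trp53-deleted ADT mice were both 5.5 months old. The labels do not spell out ADT, read here as androgen deprivation therapy, and they mark the deletion PC, read here as prostate-restricted, without naming the promoter that drives it. How many mice went into a library is not given in the labels. With 1 library a group, neither ADT nor genotype can be told apart from library, ADT goes with the older age, and without ADT the 2 genotypes also differ in age. No test between groups was therefore possible, and the intervals below are exact 95% intervals that cover counting error only, while UMIs of 1 cell are not independent.

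ErbB ligands are mostly made as membrane proteins that proteases release, and they act on neighbouring cells or on the cell that made them. Amphiregulin (Areg) and transforming growth factor alpha (Tgfa) bind the EGF receptor (Egfr), while heparin-binding EGF (Hbegf), betacellulin (Btc) and epiregulin (Ereg) bind both Egfr and Erbb4. Neuregulin 1 (Nrg1) binds Erbb3 and Erbb4. Erbb2 binds no ligand and serves as a partner, and Erbb3 has little kinase activity of its own, so that the pair of Erbb2 and Erbb3 passes on neuregulin signals. Neuregulin 1 from stromal cells is a known support of prostate tumour growth after castration.

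The 4 libraries held 7806 to 10595 barcodes and 58088678 to 148030357 UMIs, and 5379 to 8833 cells each were kept, with a median of 4129 to 5660 UMIs per cell. Between 37 and 57 of the kept barcodes in each library also occurred in another library. Trp53 itself stood at 56.1 CPM (UMI counts scaled to the total UMIs of the class in that library) and 90.7 CPM in luminal progenitor-like cells of the Trp53-intact libraries without and with ADT, against 17.1 and 19.2 CPM in the Trp53-deleted libraries. In fibroblast-like cells it stood at 44.0, 68.4, 45.9 and 45.5 CPM, but 3' reads can lie outside the deleted part. In what follows, 4 values in a row are given first for the Trp53-intact mice without and then with ADT, and after them for the Trp53-deleted mice without and then with ADT. Cells were clustered without the 10 genes and classes were called X-like from marker genes. Neutrophil-like cells (median 2607.5 to 3534 UMIs per cell) and B-like cells (3834 to 5544.5) served as classes that should hold little of a gene, beside medians of 24279 to 37993 UMIs in luminal progenitor-like and 5394 to 9219 in fibroblast-like cells. The luminal progenitor-like class (430, 267, 284 and 123 cells) was the only prostate epithelial class with at least 50 cells in every library. It was led by Wfdc2, Psca and Mmp7, and all 13 of its markers were detected. Secretory luminal-like cells were nearly all in the Trp53-intact library (676, 3, 24 and 0 cells), so they enter none of the comparisons below. They are part only of an alternative over all epithelial-like cells, where nearly all of them are on one side. The basal-like class had 153, 157, 90 and 28 cells.

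**Figure D1:**
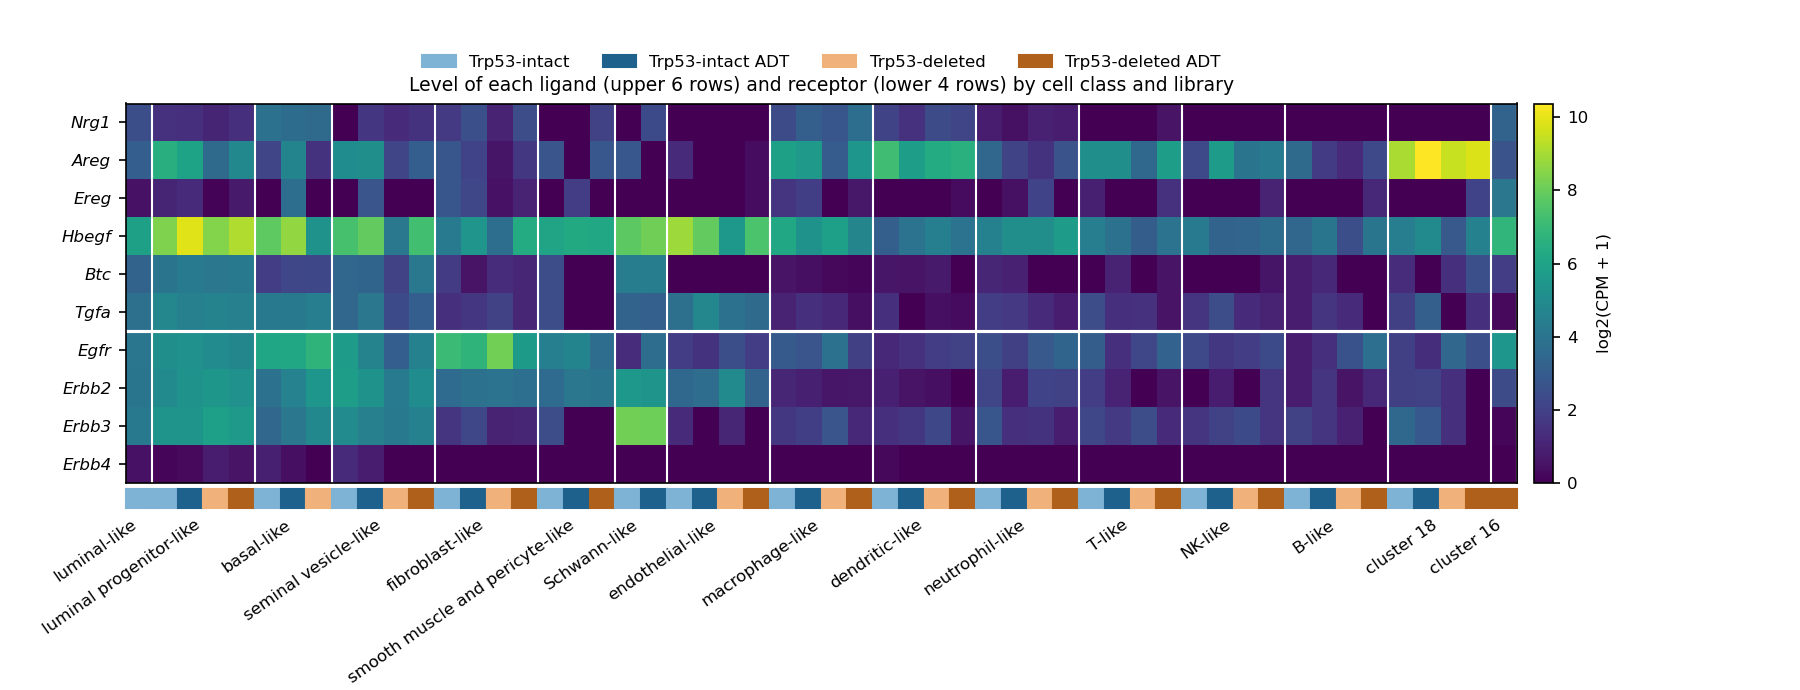
Each row is 1 gene and each column 1 cell class in 1 library with at least 50 cells, with the library given by the coloured bar under it. Colour is log2(CPM + 1), to be read along a row only. Hbegf reaches its highest value in a luminal progenitor-like column (948 CPM), Areg in cluster 18, which is led by Tnfrsf4 (1330 CPM), Egfr in a fibroblast-like column (288 CPM) and Erbb3 in a Schwann-like column (291 CPM), while the Erbb4 row stays near 0. Cluster 16 is the one led by Ptn, Crabp1 and Postn.

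Nrg1 (chr8:31814551-32884029, - strand, GRCm38) was sparse in these libraries. Its level was highest, among the 18 classes with at least 50 cells in some library, in basal-like cells, at 13.8, 11.6 and 11.2 CPM in the 3 libraries with enough cells, and then in macrophage-like cells, at 4.30, 7.94, 5.91 and 12.6 CPM. The ranges of these 2 classes over the libraries overlapped. Luminal-like cells came next, with a single value of 4.66 CPM that lay under the whole basal-like range. Luminal progenitor-like cells held 1.77, 1.63, 1.10 and 1.64 CPM, and neutrophil-like cells 0.776, 0.381, 0.936 and 0.767 CPM. Fibroblast-like cells held 22, 61, 12 and 31 Nrg1 UMIs, which is 2.39, 4.78, 0.974 and 4.50 CPM. Both ADT libraries thus lay above both libraries without ADT.

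The fibroblast-like difference of Nrg1 was 4.62-fold higher with ADT in the Trp53-deleted libraries (interval 2.31 to 9.89) and 1.998-fold higher in the Trp53-intact libraries (1.21 to 3.42). The libraries compared differ in which fibroblast-like cells they hold. A cluster led by Sult1e1, Col6a5 and Gpx3 gave 930, 57, 1291 and 19 cells, and a cluster led by Sfrp4, Apod and Sfrp1 gave 85, 903, 43 and 422 cells. The cluster led by Wif1, Lgr5 and Cxcl14 was spread more evenly, with 259, 371, 239 and 335 cells. Its cells were shallow in the Trp53-intact library, though, with medians of 1270, 5285, 6640 and 5853 UMIs per cell. Within that last cluster Nrg1 stood at 7.21, 11.9, 1.06 and 8.91 CPM on 10, 26, 2 and 20 UMIs. The ADT difference was thus also seen inside the Wif1 cluster in the Trp53-deleted libraries (8.40-fold, interval 2.04 to 74.1). In the Trp53-intact libraries the interval of 0.767 to 3.82 held 1. The Sult1e1 cluster of the Trp53-intact libraries went the other way, with 10 Nrg1 UMIs (1.43 CPM) without ADT and 0 with it. These UMIs were too few for a ratio. In the Sfrp4 cluster the Trp53-intact libraries held 2.44 and 3.66 CPM on 2 and 35 UMIs, and the interval of 0.385 to 12.9 held 1. Neither of these clusters had 50 cells in both Trp53-deleted libraries, so no ratio was read there.

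Most Nrg1 UMIs of a library did not come from the fibroblast-like class. In the Trp53-deleted ADT library, 53.2% of the 964 Nrg1 UMIs lay in an unnamed cluster led by Ptn, Crabp1 and Postn, which made up 7.50% of its cells. That cluster had 662 cells in the Trp53-deleted ADT library and 1 elsewhere, scored under the limit for fibroblast-like cells and had a median of 80041 UMIs per cell there. The median over all kept cells there was 5660 UMIs, so the cluster's share of all UMIs was above its share of cells. The cluster's Nrg1 level was 8.79 CPM (8.05 to 9.58), and it was given no cell type. Macrophage-like cells held 30.5%, 23.5%, 24.8% and 38.0% of the Nrg1 UMIs of the libraries, against 8.94%, 31.1%, 9.02% and 3.22% for fibroblast-like cells. A group of 22 cells led by Pcsk1n, Npy and Sncg, genes of neurons, held Nrg1 at 35.4, 40.2 and 54.0 CPM in the 3 libraries where it was found.

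In macrophage-like cells Nrg1 was 2.14-fold higher with ADT in the Trp53-deleted libraries (interval 1.49 to 3.15). The class holds 2 large clusters, one led by Ms4a4c, Lyz2 and Trem2 (173, 215, 98 and 2131 cells) and one led by Ccl8, Cd209f and Folr2 (1185, 75, 534 and 59 cells), the latter with markers of tissue-resident macrophages. In the first cluster Nrg1 stood at 15.4, 11.7, 22.9 and 15.1 CPM, and in the second at 2.24, 1.29, 0.816 and 0 CPM. The direction of the class was therefore not seen inside the first cluster, where the ADT value was 1.51-fold lower (1.01 to 2.20), and the share of cells from each cluster moves with the class value.

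Areg was lower in the Trp53-deleted library than in the Trp53-intact library in luminal progenitor-like, macrophage-like, dendritic-like and T-like cells. It was also lower in neutrophil-like cells, a background class, on 25 and 4 UMIs (intact and deleted without ADT). NK-like cells held 3.94 and 15.0 CPM in these 2 libraries, on 4 and 11 UMIs, too few for a ratio. Ereg, Areg and Btc lie next to each other on mouse chromosome 5 (GRCm38), within 328.4 kb: Ereg at chr5:91074622-91093646 and Areg at chr5:91139599-91148432 on the + strand, Btc at chr5:91357261-91402994 on the - strand. The 250 bases before the Areg start are shown because the gene was lower in epithelial and immune classes of the same library, and those before the Egfr start because Egfr differed in 3 of the 4 fibroblast-like comparisons. Both come from RefSeq (GRCm38.p6, + strand, Areg chr5:91139349-91139598 and Egfr chr11:16751953-16752202), with matches to 4 motifs in capitals.
Areg: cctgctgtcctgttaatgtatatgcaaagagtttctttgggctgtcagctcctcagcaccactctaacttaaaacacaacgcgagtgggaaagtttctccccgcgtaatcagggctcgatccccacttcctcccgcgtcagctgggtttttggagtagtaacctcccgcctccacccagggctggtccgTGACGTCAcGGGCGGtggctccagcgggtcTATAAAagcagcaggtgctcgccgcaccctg
Egfr: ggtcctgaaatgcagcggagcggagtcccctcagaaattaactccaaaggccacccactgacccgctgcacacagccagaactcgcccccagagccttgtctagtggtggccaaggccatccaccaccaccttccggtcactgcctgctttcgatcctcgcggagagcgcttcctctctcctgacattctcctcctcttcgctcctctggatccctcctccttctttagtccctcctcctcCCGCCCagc
The capitals in Areg mark the cyclic AMP response element TGACGTCA starting 61 bases before the start, the GC box GGGCGG at 52 bases and the TATA box TATAAA at 31 bases. In Egfr they mark a GC box on the other strand, 9 bases before the start. The AP-1 motif TGANTCA was the fourth one searched, on both strands and with no overlap between motifs, and neither window holds it. Among 32851 promoters of the same length, 1.55% hold TGACGTCA, 12.4% TATAAA, 32.7% GGGCGG and 6.75% TGANTCA. These matches describe the letters only. GC content was 57.2% for Areg and 60.8% for Egfr, beside a median of 52.4% over all promoters.

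The highest Areg level in any group of cells was in an unnamed cluster led by Tnfrsf4, Ctla4 and Ikzf2. Its 10 leading genes also held Il2ra and Foxp3, genes of regulatory T cells, beside Calca, Tnfrsf18, Klrg1, Csf2 and Areg itself. The cluster was left unnamed because Calca, from the neuroendocrine marker list, was among these genes and no marker of the T cell list was. Its 152, 110, 212 and 172 cells held Areg at 530.2, 1330, 733 and 907 CPM. The value with ADT was 2.51-fold higher in the Trp53-intact libraries (interval 2.22 to 2.84) and 1.24-fold higher in the Trp53-deleted libraries (1.09 to 1.40). With cells thinned to 2000 UMIs, 37.0%, 56.4%, 33.6% and 40.3% of this cluster had an Areg UMI. Shares in thinned B-like cells, the background here, were 1.46%, 0.449%, 0.503% and 0.565%.

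In luminal progenitor-like cells Areg stood at 92.6 CPM in the Trp53-intact library (1883 UMIs), 64.5 CPM in the Trp53-intact ADT library, 11.1 CPM in the Trp53-deleted library (141 UMIs) and 27.4 CPM in the Trp53-deleted ADT library. Both Trp53-deleted libraries lay below both Trp53-intact libraries. The genotype difference was 8.35-fold without ADT (interval 7.03 to 9.98) and 2.35-fold with ADT (1.93 to 2.89). Between the Trp53-deleted libraries the value with ADT was 2.47-fold higher (1.92 to 3.18), and between the Trp53-intact libraries it was 1.44-fold lower (1.31 to 1.57).

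Areg UMIs were spread unevenly over luminal progenitor-like cells. The highest single cell held 222, 178, 42 and 15 UMIs, and without it the levels were 82.0, 48.4, 7.87 and 24.2 CPM, in the same order of libraries. Areg UMIs were seen in 132 of 430, 90 of 267, 34 of 284 and 31 of 123 cells. After thinning, 8.43%, 8.85%, 0.712% and 0.820% of the 427, 260, 281 and 122 cells deep enough had a UMI. The Trp53-intact shares lay above every B-like share given above. The Trp53-deleted shares, which rest on very few cells, lay above the B-like share of their own library and below the highest B-like share. Without thinning, B-like cells held Areg at 1.39 to 11.2 CPM over the libraries. The summed level of 11 macrophage markers in these cells was 466, 177, 161 and 394 CPM, and that of 10 T cell markers 5.80, 71.8, 10.3 and 56.0 CPM. Their part in the Areg values was not tested.

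The Trp53-deleted library without ADT was also the lowest in macrophage-like and T-like cells. Macrophage-like cells held Areg at 57.9, 47.3, 7.16 and 43.2 CPM, and T-like cells at 35.4, 35.1, 10.0 and 55.3 CPM. Neutrophil-like cells, a background class, had the same library lowest, at 9.70, 3.43, 1.87 and 5.37 CPM on 25, 18, 4 and 7 UMIs. For macrophage-like cells that library was 8.08-fold below the Trp53-intact library (interval 5.89 to 11.4) and 6.03-fold below the Trp53-deleted ADT library (4.40 to 8.48). Inside both large macrophage-like clusters it was the lowest as well, at 217.6, 63.8, 9.91 and 43.1 CPM in the Ms4a4c cluster and 26.4, 18.1, 7.07 and 89.6 CPM in the Ccl8 cluster. The third, smaller cluster of the class, led by the proliferation gene Mki67, held 15.3, 15.9, 1.68 and 37.9 CPM, the third value on 1 UMI in 33 cells. Dendritic-like cells did not follow this order, with 145, 56.1, 82.6 and 93.9 CPM, and the Trp53-intact ADT library lowest. Nor did the Tnfrsf4 cluster above. In T-like cells of the Trp53-deleted library, 10 of the 11 UMIs came from 1 cell, and the NK-like value of 51.3 CPM in the Trp53-intact ADT library came from 8 cells, with 31 of 69 UMIs in 1 of them.

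**Figure D2:**
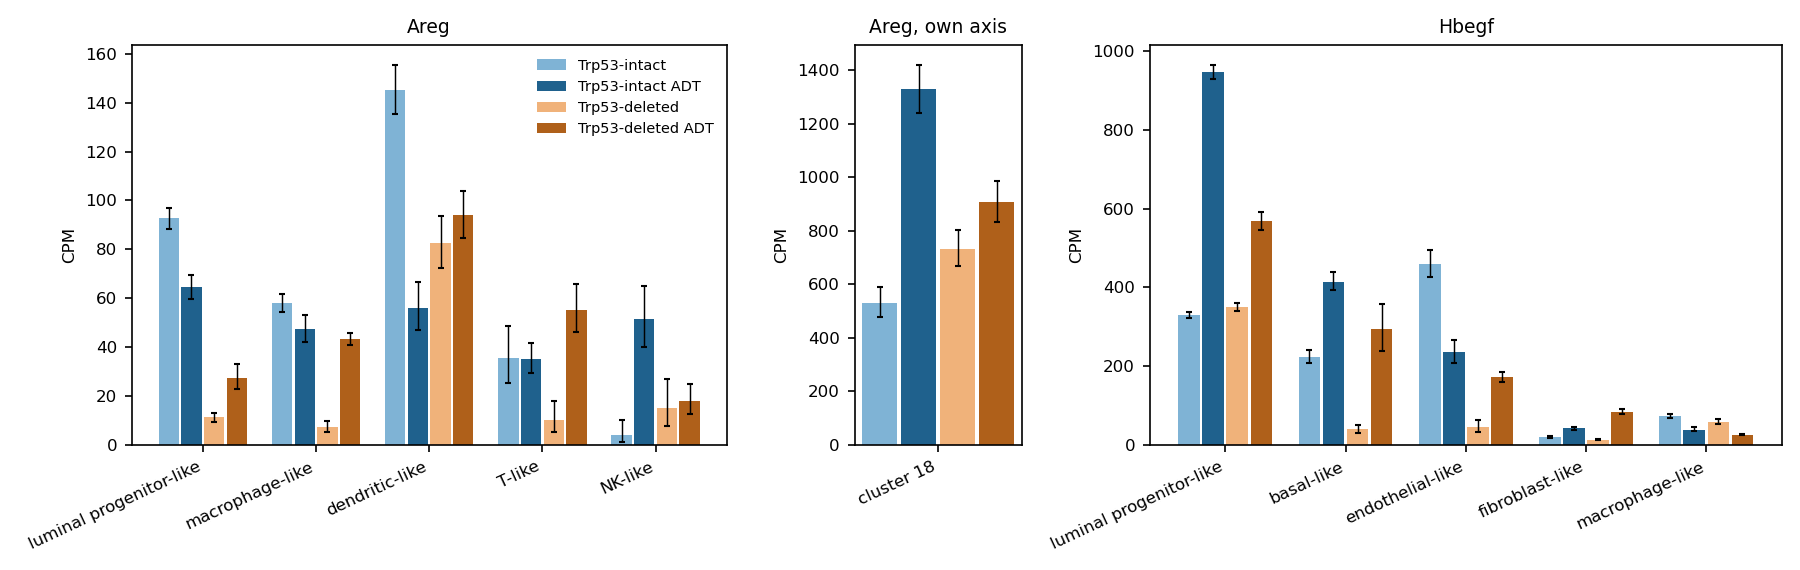
Bars give CPM of Areg (left, with the Tnfrsf4 cluster, cluster 18, on its own axis) and Hbegf (right) by class and library, with exact Poisson 95% intervals. Areg is lowest in the Trp53-deleted library in luminal progenitor-like and macrophage-like cells (11.1 and 7.16 CPM), and Hbegf in luminal progenitor-like cells is higher in each ADT library than in the library of the same genotype without ADT.

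Ereg was near the limit of detection in every named class. Of the 1009 Ereg UMIs of the Trp53-deleted ADT library, 94.1% lay in the cluster led by Ptn, Crabp1 and Postn, where 253 of 662 cells had a UMI and the level was 16.3 CPM (15.2 to 17.3). Elsewhere single cells set the values. Basal-like cells held 38 UMIs under ADT with Trp53 intact and 0 in the other 3 libraries, and 30 of the 38 came from 1 cell. Fibroblast-like cells held 5.76, 3.602, 0.406 and 1.02 CPM, with 28 of the 53 UMIs of the Trp53-intact library in 1 cell. Without that cell the level there was 2.72 CPM.

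Hbegf, which is also known as an early gene of wound and stress responses, was higher with ADT in luminal progenitor-like cells of both genotypes. They held it at 329.5 CPM in the Trp53-intact library, 948 CPM in the Trp53-intact ADT library, 350.1 CPM in the Trp53-deleted library and 568 CPM in the Trp53-deleted ADT library. Both ADT libraries lay above both libraries without ADT, which were 1.06-fold apart (interval 1.02 to 1.10). The ADT value was 2.88-fold higher in the Trp53-intact libraries (2.79 to 2.97) and 1.62-fold higher in the Trp53-deleted libraries (1.54 to 1.70). With ADT the Trp53-deleted library was 1.67-fold below the Trp53-intact one (1.60 to 1.75). Thinned to 2000 UMIs, 31.1%, 54.2%, 26.3% and 38.5% of the cells had an Hbegf UMI, against 3.47%, 5.00%, 4.83% and 6.30% of neutrophil-like cells.

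A list of 15 genes that tissue dissociation is known to raise was also higher with ADT in these cells. Its summed level in luminal progenitor-like cells was 10254, 18603, 9031 and 15107 CPM, with none of the 15 at 0. With ADT, 10 of the 15 were at least 1.5-fold higher and 2 lower in the Trp53-intact libraries, where 11.2% of all genes were called in either direction (median log2 ratio 0.95, beside 0.05 over all genes). In the Trp53-deleted libraries 10 were higher and 0 lower, where 13.7% of all genes were called (0.68, beside -0.08). Fosb, an early response gene, was 429 and 1571 CPM in the Trp53-intact libraries without and with ADT. Hspa1a, a heat shock gene, went the other way, at 624 and 49.8 CPM. The part of dissociation in the Hbegf values was not tested.

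Basal-like cells held Hbegf at 223, 414 and 38.5 CPM in the 3 libraries with at least 50 cells, and at 293 CPM in the 28 cells of the Trp53-deleted ADT library. The Trp53-deleted library was 5.80-fold below the Trp53-intact one (4.47 to 7.64). The dissociation list in basal-like cells stood at 14264, 17485, 4489 and 15634 CPM and was also lowest in that library. Macrophage markers summed to 7836, 2413, 2216 and 3570 CPM in basal-like cells, and their part was not tested.

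Endothelial-like cells held Hbegf at 459.8, 235, 45.5 and 171.5 CPM. With ADT it was 1.96-fold lower in the Trp53-intact libraries (interval 1.69 to 2.27) and 3.77-fold higher in the Trp53-deleted libraries (2.73 to 5.35). Without ADT the Trp53-deleted library was 10.1-fold below the Trp53-intact one (7.32 to 14.3), and its 39 UMIs are the base of both values. The dissociation list in this class was 23079, 20765, 9724 and 10678 CPM, lower in both Trp53-deleted libraries, and Hbegf differed between those 2 libraries. The part of dissociation in these values was not tested.

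Fibroblast-like cells held Hbegf at 18.4, 41.3, 12.6 and 83.4 CPM, again with both ADT libraries above both others. The neutrophil-like background stood at 22.5, 33.7, 33.7 and 52.9 CPM, so that values of the libraries without ADT were not above it. The difference with ADT was 2.25-fold in the Trp53-intact libraries (1.89 to 2.69) and 6.63-fold in the Trp53-deleted libraries (5.54 to 7.97). By cluster the values were 6.45, 16.6, 9.62 and 29.2 CPM for the Sult1e1 cluster, 19.5, 31.4, 40.6 and 74.7 CPM for the Sfrp4 cluster, and 77.9, 95.7, 24.9 and 105.5 CPM for the Wif1 cluster. In the Wif1 cluster the difference was 1.23-fold in the Trp53-intact libraries, with an interval of 0.970 to 1.57, and 4.24-fold in the Trp53-deleted libraries (3.09 to 5.92).

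The macrophage-like class shows the opposite order for Hbegf, at 72.6, 38.0, 57.5 and 25.4 CPM, which is 1.91-fold and 2.27-fold lower with ADT in the Trp53-intact and Trp53-deleted libraries. Inside its 2 large clusters the direction turned. The Ms4a4c cluster held 9.71, 26.1, 8.39 and 25.9 CPM and the Ccl8 cluster 97.9, 145, 84.3 and 133 CPM, so within each of them the ADT libraries were higher in both genotypes. The lower class values thus came with a smaller share of the Ccl8 cluster in the ADT libraries. In the Trp53-deleted ADT library the largest source of Hbegf was the cluster led by Ptn, Crabp1 and Postn, with 52.4% of the 12574 UMIs and 113 CPM. In the other 3 libraries luminal progenitor-like cells held 63.3%, 71.3% and 83.7% of the Hbegf UMIs with 3.67% to 5.73% of the cells. Those cells were deep, at medians of 35714, 29305 and 37993 UMIs against 5473, 4129 and 4454 over all kept cells. Their share of all UMIs was therefore above their share of cells.

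Betacellulin and transforming growth factor alpha differed little between libraries in the luminal progenitor-like class. Btc stood there at 15, 18.1, 16.5 and 17.1 CPM, and the largest ratio between compared libraries was 1.20-fold (interval 0.999 to 1.45). Tgfa stood at 27.3, 21.8, 24.1 and 21.8 CPM, and the largest ratio was 1.25-fold (1.07 to 1.47). Luminal progenitor-like cells held 72.3%, 72.1%, 84.6% and 25% of the Btc UMIs of the 4 libraries, but 53.4% in the last library came from the Ptn cluster at a low level of 2.67 CPM. Schwann-like cells, the glia of peripheral nerves, had the highest Btc level, 19.5 and 19.97 CPM in the Trp53-intact libraries without and with ADT, on 13 and 5 UMIs. Among the named classes basal-like cells followed luminal progenitor-like cells for Tgfa, with 17.3, 17.5 and 20.5 CPM, and the ranges of the 2 classes did not overlap. Endothelial-like cells held Tgfa at 13.3, 26.7, 14.0 and 11 CPM, which is 2.01-fold higher with ADT in the Trp53-intact libraries (1.10 to 3.74).

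Egfr, the receptor for most of these ligands, had its highest mean over libraries in fibroblast-like cells (144 CPM), ahead of basal-like cells (82.3 CPM) with an overlapping range. The gene lies at chr11:16752203-16918158 on the + strand (GRCm38). Fibroblast-like cells held it at 133 CPM in the Trp53-intact library (1220 UMIs), 106 CPM in the Trp53-intact ADT library (1352 UMIs), 288 CPM in the Trp53-deleted library (3552 UMIs) and 49.2 CPM in the Trp53-deleted ADT library (339 UMIs). The 2 Trp53-deleted libraries are thus the highest and the lowest, with the Trp53-intact libraries between them. The ratio with ADT was 5.86-fold lower in the Trp53-deleted libraries (interval 5.24 to 6.56) and 1.25-fold lower in the Trp53-intact ones (1.16 to 1.35). Deletion went with a 2.17-fold higher value without ADT (2.04 to 2.32) and a 2.15-fold lower value with ADT (1.91 to 2.43).

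The fibroblast-like clusters differed among themselves in Egfr. The Sult1e1 cluster, which held most fibroblast-like cells of both libraries without ADT, stood at 155, 139.8, 333.5 and 58.4 CPM, the last in 19 cells. In the Sfrp4 cluster, which held most of those with ADT, the levels were 75.7, 116, 159 and 61.1 CPM, the third in 43 cells. The Wif1 cluster was lower, at 51.9, 44.2, 63.6 and 24.9 CPM. In each of the 3 clusters the Trp53-deleted ADT library was the lowest and the Trp53-deleted library the highest. In the Wif1 cluster the value with ADT was 2.55-fold lower between the Trp53-deleted libraries (1.84 to 3.57), and the genotype ratio without ADT was 1.23-fold, with an interval of 0.907 to 1.67. Thinned to 2000 UMIs, 21.3%, 15.5%, 39.4% and 6.51% of fibroblast-like cells had an Egfr UMI, against 0.668%, 0.643%, 0.862% and 1.45% of neutrophil-like cells.

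**Figure D3:**
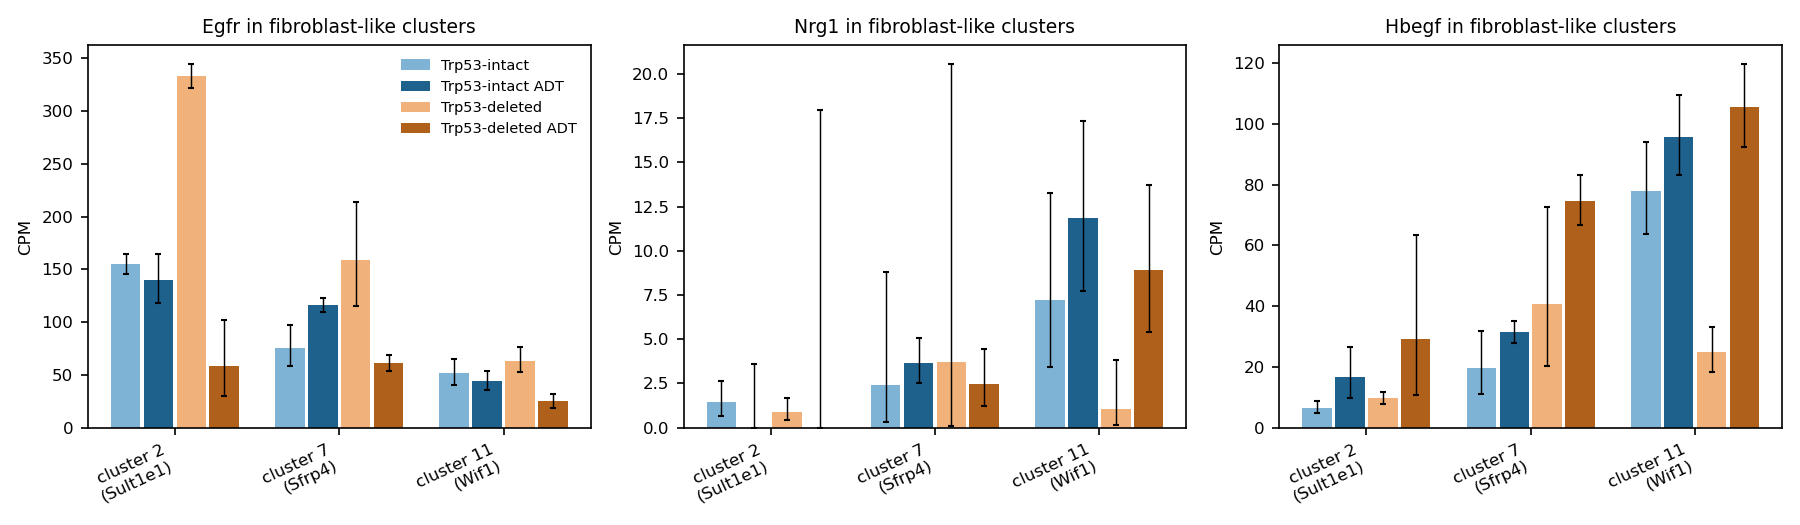
Bars give CPM of Egfr, Nrg1 and Hbegf in the 3 large fibroblast-like clusters by library, with exact Poisson 95% intervals. Egfr is highest in the Trp53-deleted library and lowest in the Trp53-deleted ADT library in each cluster, and Hbegf in the Wif1 cluster lies between 24.9 and 105.5 CPM.

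In the Trp53-deleted ADT library, 74.8% of all 3365 Egfr UMIs came from the Ptn cluster, where the level was 43.1 CPM, and 10.1% from fibroblast-like cells. Basal-like cells held Egfr at 67.0, 74.4, 106 and 61.1 CPM, the last on 28 cells. The Trp53-deleted library was 1.58-fold above the Trp53-intact one there (1.28 to 1.93). Luminal progenitor-like cells were even, at 35.03, 37.2, 31.5 and 26.0 CPM, with no ratio above 1.43-fold. Of the 18 classes, only the fibroblast-like and basal-like ranges over libraries lay wholly above that of the luminal progenitor-like cells.

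Erbb3 (chr10:128567523-128589652, - strand), a neuregulin receptor, was most abundant in Schwann-like cells, at 291 and 272 CPM in the 2 Trp53-intact libraries, and at 347 and 377 CPM in the 25 and 5 cells of the Trp53-deleted libraries. Schwann cells are known to depend on neuregulin signalling through this receptor. Next came an unnamed cluster led by Ghrl, Lypd8 and Lgals4, with a mean of 68.6 CPM over its 2 libraries, and then, first among the other named classes, luminal progenitor-like cells at 40.7, 40.2, 57.2 and 48.3 CPM. Their Trp53-deleted library was 1.40-fold above the Trp53-intact one (interval 1.27 to 1.55), which is under the 1.5-fold used for a call. Basal-like cells held 9.69, 16.5, 28.0 and 12.2 CPM, the last in 28 cells, and their Trp53-deleted library was 2.88-fold above the Trp53-intact library (1.80 to 4.67). Fibroblast-like cells held 0.974 to 3.602 CPM.

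Erbb2 (chr11:98412470-98437716, + strand), the co-receptor, stood at 44.9 and 39.95 CPM in Schwann-like cells of the Trp53-intact libraries and at 29.9, 38.9, 44.6 and 37.5 CPM in luminal progenitor-like cells. The ranges of these 2 classes overlap. Luminal progenitor-like cells were 1.495-fold higher in the Trp53-deleted than in the Trp53-intact library without ADT (1.33 to 1.68), a log2 ratio of 0.51, under the call, after 5 CPM were added to each value. Basal-like cells held 13.5, 23.1, 42.2 and 21.4 CPM and were 3.13-fold higher in the Trp53-deleted library (2.12 to 4.65). Fibroblast-like cells held 11.3, 14.0, 14.6 and 12.9 CPM.

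Erbb4, the other neuregulin receptor, was barely detected. The 4 libraries held 10, 4, 9 and 3 Erbb4 UMIs in all kept cells. Luminal progenitor-like cells had 3, 2, 9 and 2 of them, and fibroblast-like cells 0 in every library, where 3 counts, the limit that a count of 0 allows, would be 0.326, 0.235, 0.244 and 0.436 CPM. Erbb4 is therefore in no ratio below. As a 3' method reads only transcript ends, absence of the protein cannot be read from this.

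Erbb2 and Erbb3 were seen in the same cell in 50.5%, 47.9%, 65.5% and 48.0% of luminal progenitor-like cells, whose median depth was 35714, 29305, 37993 and 24279 UMIs. In Schwann-like cells of the Trp53-intact libraries both were seen in 10.98% and 6.45% of cells, at medians of 3125 and 1406 UMIs. Thinning to 2000 UMIs kept 427, 260, 281 and 122 luminal progenitor-like cells and 109 and 40 Schwann-like cells. The order then turned, with 0.234%, 0%, 0.356% and 0.820% of luminal progenitor-like cells and 6.42% and 7.50% of Schwann-like cells. These thinned shares rest on few cells with both genes. The unthinned order thus came with depth. Fibroblast-like cells showed the pair in 0 of 1277, 5 of 1331, 0 of 1583 and 1 of 776 cells.

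**Figure D4:**
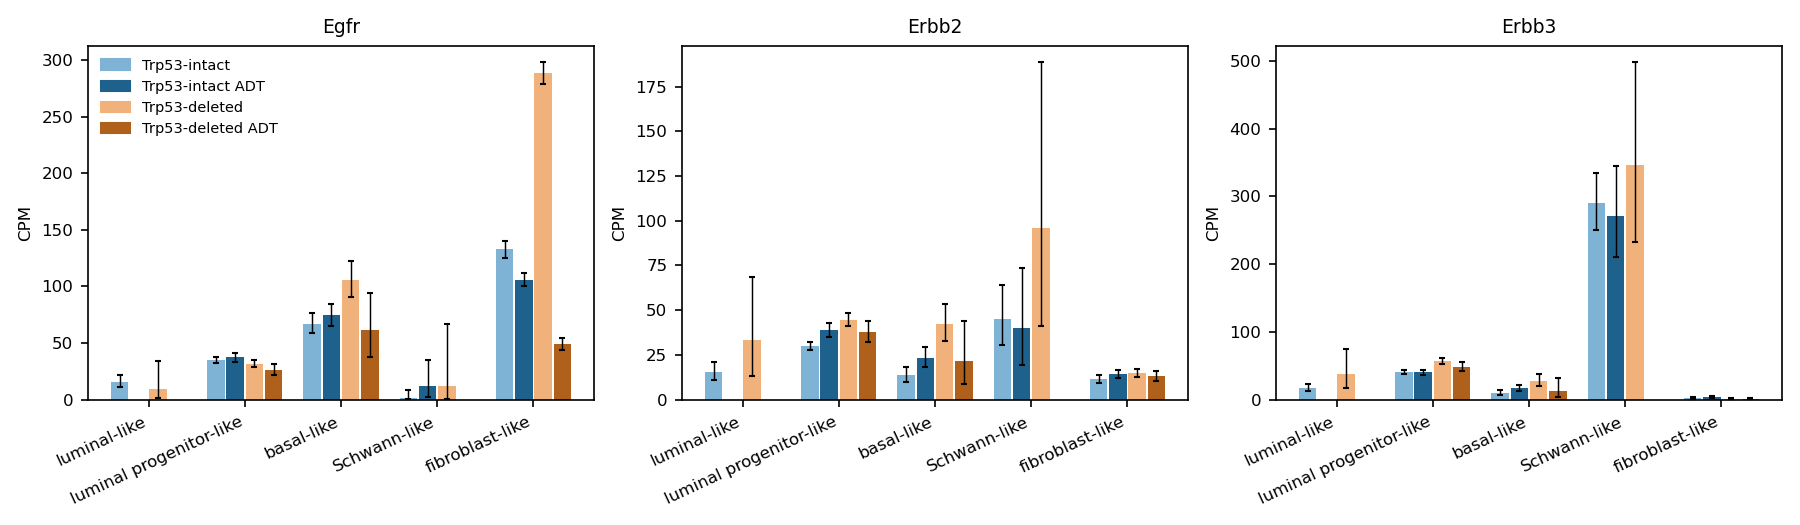
Bars give CPM of Egfr, Erbb2 and Erbb3 by class and library for classes with at least 18 cells in that library, with exact Poisson 95% intervals. Egfr reaches its highest value in fibroblast-like cells (288 CPM in the Trp53-deleted library), and Erbb3 in Schwann-like cells (272 to 347 CPM in the bars shown).

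Taking the family as a list, a gene was called in a comparison where it had at least 20 UMIs in both libraries together, the ratio of CPM + 5 was at least 1.5-fold and the interval of the ratio did not hold 1. In luminal progenitor-like cells with ADT, 1 of 9 measured members was called in the Trp53-intact libraries (Hbegf, higher), where 11.2% of all measured genes were called. In the Trp53-deleted libraries 2 of 8 were called (Areg and Hbegf, both higher), where 13.7% of all genes were. Between genotypes, 1 of 9 was called without ADT (Areg, lower, all genes 5.91%) and 2 of 8 with ADT (Areg and Hbegf, lower, all genes 7.14%). The medians of the members' log2 ratios were 0.08, -0.04, -0.13 and -0.06 in these 4 comparisons, beside 0.05, -0.08, 0.11 and -0.02 over all genes. The list as a whole therefore sat close to all genes, and 1 or 2 ligands made up the calls, while no receptor was called.

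In fibroblast-like cells with ADT, 1 of 9 members was called in the Trp53-intact libraries (Hbegf, higher), with 13.2% of all genes called. In the Trp53-deleted libraries 3 of 8 were called (Nrg1 and Hbegf higher, Egfr lower), with 19.4% of all genes called. Between genotypes 3 of 9 were called without ADT (Egfr higher, Areg and Ereg lower, all genes 16.1%) and 2 of 8 with ADT (Hbegf higher, Egfr lower, all genes 15.0%). Member medians were 0.10, -0.01, -0.24 and -0.21, beside 0.05, -0.06, 0.13 and 0.01. The Areg and Ereg calls rest on levels of at most 5.87 CPM, that of Areg in the Trp53-intact library. There the neutrophil-like cells held Areg at 9.70 CPM, and with neutrophil-like CPM taken off the Areg call was lost (log2 ratio 0.00). The Ereg call was lost with per-cell means and without its top cell. The Hbegf calls with ADT in the Trp53-intact libraries and with deletion under ADT were both lost in the Wif1 cluster alone (0.28 and 0.13) and with the fibroblast-like clusters weighted equally. The Egfr call with deletion without ADT was also lost in the Wif1 cluster alone (0.27). Cells of that cluster were shallow in the Trp53-intact library, with a median of 1270 UMIs. Each pair of these comparisons that has a library in common also shares its error.

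Basal-like cells allowed 2 comparisons. With ADT in the Trp53-intact libraries 4 of 9 members were called, all higher (Areg, Ereg, Hbegf and Erbb2), beside 13.4% of all genes. Ereg rests on the single cell described above, and Areg on 3.52 and 24.8 CPM. In Trp53-deleted against Trp53-intact libraries without ADT 4 of 6 were called (Egfr, Erbb2 and Erbb3 higher, Hbegf lower), beside 29.8% of all genes. The members' medians were 0.55 and 0.41, beside 0.07 and 0.29 over all genes.

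**Figure D5:**
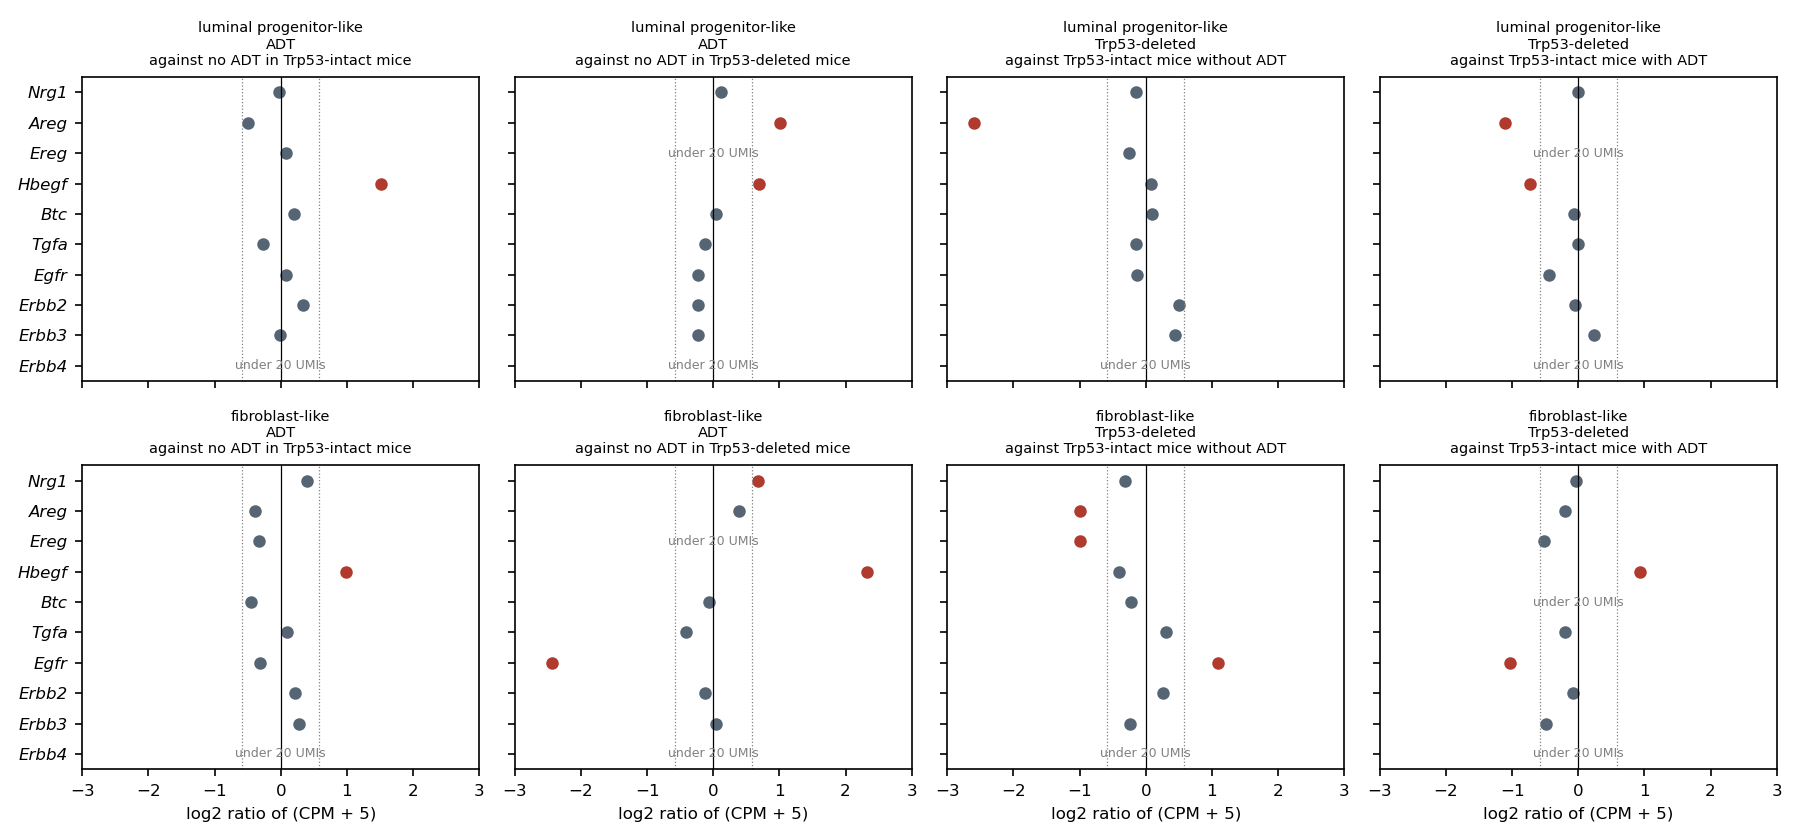
Each point is the log2 ratio of (CPM + 5) of 1 member in 1 comparison, for luminal progenitor-like cells (top) and fibroblast-like cells (bottom). Red points were called and dotted lines mark 1.5-fold. Hbegf is to the right of the line in all 4 panels that compare ADT with no ADT, and Egfr lies at -2.43 in fibroblast-like cells of the Trp53-deleted libraries.

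The other genes of the pathway were read from lists of 58 genes in 5 groups, by the same rule. Among other ligands, Egf itself, the founding member of the family, stood in luminal progenitor-like cells at 25.4, 11.1, 25.8 and 0.703 CPM, on 517, 116, 328 and 3 UMIs. It was the only called member of its list there. With ADT it was lower in both genotypes (1 of 4 and 1 of 2 measured, beside 11.2% and 13.7% of all genes). With deletion under ADT it was also lower (1 of 3, beside 7.14%). In fibroblast-like cells Nrg2, a second neuregulin, stood at 3.59, 2.51, 11.4 and 6.25 CPM. It was called higher with deletion without ADT, 1 of 2 measured, beside 16.1% of all genes.

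Among the inhibitors of the receptors, Errfi1, which binds and blocks the EGF receptor kinase and is itself induced by it, stood at 288, 504, 227 and 385 CPM in luminal progenitor-like cells. It was the 1 of 12 called higher with ADT in each genotype, with 0 and 2 lower, beside 11.2% and 13.7% of all genes called in either direction. In fibroblast-like cells Errfi1 stood at 486, 321, 523 and 133 CPM, with the Trp53-deleted library highest and the Trp53-deleted ADT library lowest, the order of Egfr in that class. There 1 of 12 was higher and 1 lower with ADT in the Trp53-intact libraries, beside 13.2% of all genes called. In the Trp53-deleted libraries 0 of 11 were higher and 3 lower, beside 19.4%. Among genes of ligand release, Timp3, an inhibitor of the sheddase Adam17, was 247, 134, 90.9 and 62.8 CPM in luminal progenitor-like cells. It was called lower with ADT in the Trp53-intact libraries and with deletion. Adam17 itself was even there, at 33.6, 35.4, 39.8 and 38.4 CPM. Of 12 adaptors, such as Grb2 and Shc1, at most 1 was called in any comparison of luminal progenitor-like cells, and at most 1 in each direction in fibroblast-like cells. All genes had 5.91% to 13.7% called in the luminal progenitor-like and 13.2% to 19.4% in the fibroblast-like comparisons.

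The list of ERK feedback and target genes, which growth factor receptors are known to induce, had 4 of 15 measured genes called higher with ADT in luminal progenitor-like cells of the Trp53-intact libraries and 6 of 16 in the Trp53-deleted libraries, with 0 lower in both. Its median log2 ratio was 0.28 and 0.41, beside 0.05 and -0.08 over all genes, of which 11.2% and 13.7% were called. Dusp6, a phosphatase that shuts off ERK, stood at 30.9, 68.7, 32.5 and 40.3 CPM. Epha2 stood at 49.4, 81.0, 43.9 and 82.2 CPM, and Ier3, which is also on the dissociation list, at 397, 790, 505 and 839 CPM. Without ADT, 0 were higher and 4 of 16 lower with deletion, beside 5.91% of all genes called in either direction. Among the 4 were Dusp5 at 48.6 and 13.2 CPM and Phlda1 at 939 and 537 CPM. With ADT, 0 were higher and 3 of 15 lower with deletion, beside 7.14% of all genes.

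In fibroblast-like cells the ERK list had calls in both directions. With ADT 2 of 18 were higher and 3 lower in the Trp53-intact libraries, and 6 of 18 higher and 3 lower in the Trp53-deleted libraries, beside 13.2% and 19.4% of all genes called (list medians 0.12 and 0.17, beside 0.05 and -0.06 over all genes). With deletion 1 of 17 was higher and 5 lower without ADT, and 2 of 18 higher and 6 lower with ADT, beside 16.1% and 15.0% (list medians -0.50 and -0.14, beside 0.13 and 0.01). Phlda1 (716, 299, 506 and 189 CPM) and Fosl1, a Fos family gene (37.5, 10.3, 8.93 and 3.05 CPM), were lower with ADT in both genotypes, while Ier3 (407, 904, 274 and 723 CPM) was higher. The dissociation list in fibroblast-like cells summed to 16216, 27884, 13476 and 15003 CPM, and its part was not tested.

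Across 56 points, each 1 class in 1 library, the 3 genes whose log2(CPM + 5) followed each member most closely were read from 16238 genes. The points share libraries and classes, so the coefficients are descriptions without a test. Egfr was followed by Ptprd (Pearson r = 0.923), Sertad4 (0.916) and Boc (0.891). For Erbb3 they were Epb41l4b (0.941), the ligand Btc (0.916) and Gal3st1 (0.906), and for Erbb2 they were Trim2 (0.925), Emp2 (0.923) and Tacc2 (0.917). Among the ligands, Tgfa had Elovl7 (0.919), Mmp15 (0.871) and Eps8l2 (0.871), and Hbegf had Emp2 (0.815), Tcim (0.815) and Bsg (0.814). Areg had the lowest coefficients of the 6 members read this way, with Etv3 (0.725), Tnip3 (0.719) and Psme2 (0.704). The other 4 members had no class mean of 20 CPM, the limit set for this reading.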

How the data were processed

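Dissociated mouse prostates were measured as 10x Genomics 3' v3 single-cell libraries, 1 per group. The deposited matrix holds whole-number UMI counts per gene and barcode, made by the authors with Cell Ranger 2.1.1 on mm10, per the submitters' processing notes, while the matrix header gives software version 3.1.0. One further genotype element common to every group is not reported here. The members and lists were chosen with earlier results of these data known.

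Barcodes needed 500 UMIs and 200 genes or more, with no more than 20% of UMIs from mitochondrial genes, and the highest Scrublet doublet scores were left out at 0.8% per 1000 cells. Clustering used scanpy 1.11.5 (2000 variable genes of which the members and pathway genes were left out, 40 principal components, 20 neighbours, Leiden resolution 1, leidenalg 0.10.2). Classes were named from marker lists, with naming limits set after the clusters were seen, so class names are rebuilt and not the authors' own. Within each library the UMIs of a class were added up and given as CPM, and ratios carry exact conditional binomial 95% intervals (scipy 1.17.1), Poisson ones for levels and Clopper-Pearson ones for shares. PCR duplicates are removed by the UMIs, and intervals and limits for a count of 0 (3 counts) cover counting error only. A ratio was read where both libraries had at least 50 cells of the class and the gene at least 20 UMIs over both. The call used a pseudocount of 5 CPM and 1.5-fold. Shares of cells were also given after thinning each cell to 2000 UMIs, without shallower cells. All 10 members are named, with up to 3 genes each way per list and comparison, and the 3 most alike genes of members reaching 20 CPM. Clusters named in the text beside these were described by their 3 leading genes. The calling step was tested on simulated Poisson counts, which hold no unevenness between cells and no differences between libraries, so that test covers neither. Gene positions are from GENCODE M21, in which 30766 of the 30905 identifiers were found. RefSeq promoters (GRCm38.p6) were found for Areg, Btc, Tgfa, Egfr, Erbb2 and Erbb4. Alternatives covered the pseudocount, filters, doublets, clustering, weighting of cells, background and class definitions.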

Additional observations from a re-analysis of the deposited data

Results flagged for a closer look

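Each result here is a pair of ratios that point in opposite directions in 2 settings of the same contrast. With 1 library a group, none of these differences was tested. Values are log2 ratios of CPM + 5.

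Egfr in fibroblast-like cells was higher with Trp53 deletion without ADT (1.09) and lower with ADT (-1.03), a difference of 2.12 between the 2 ratios. In seminal vesicle-like cells, which held Egfr at 50.7, 24.0, 7.52 and 22.5 CPM, the ratio of ADT to no ADT was -0.94 in the Trp53-intact and 1.14 in the Trp53-deleted libraries, a difference of -2.08. The median over all genes in this class was 0.15 and 1.11 in the same comparisons, so the Trp53-deleted value was close to that of the class as a whole. Seminal vesicle is a neighbouring gland, and how much of it a dissected sample holds is not given in the labels.

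Hbegf in endothelial-like cells was lower with ADT in the Trp53-intact libraries (-0.95) and higher in the Trp53-deleted libraries (1.80), a difference of -2.76. Areg in T-like cells was lower with deletion without ADT (-1.43) and higher with ADT (0.59), a difference of -2.02, with 10 of the 11 UMIs of the Trp53-deleted library in 1 cell. Areg in dendritic-like cells gave -0.78 and 0.69 in the same comparisons, a difference of -1.48.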

How the results depend on the processing

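No paired analysis was possible because each group is 1 library. Of 112 counts of called members under alternatives, 92 stayed within 1.5 times the reported count. Of 915 single log2 ratios, 834 moved by no more than the distance from the middle to the end of their log2 interval. Of the 915, 0 turned direction after a call. The cause of the shifts below was not tested. The share of all genes called was not worked out under the alternatives, so the changed counts cannot be set beside it. With a pseudocount of 1 CPM the fibroblast-like counts became 5 and 5 with ADT (Trp53-intact, Trp53-deleted) and 5 and 4 with deletion (without, with ADT), and the luminal progenitor-like count with deletion without ADT became 2. The mean of per-cell CPM gave 3 for ADT in Trp53-intact luminal progenitor-like cells, 2 for deletion without ADT there, and 3 for ADT in Trp53-intact fibroblast-like cells. Taking off neutrophil-like CPM gave 2 for deletion without ADT in luminal progenitor-like cells. All epithelial-like cells gave 2 for ADT in Trp53-intact libraries and 2 and 4 for deletion without and with ADT. Clustering each library on its own gave 1 for luminal progenitor-like cells under ADT with Trp53 deleted (Hbegf lost, log2 ratio 0.52), and 5 for ADT and 4 for deletion under ADT in fibroblast-like cells. Weighting fibroblast-like clusters equally gave 3 for ADT in Trp53-intact libraries and 5 for deletion without ADT.

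Of alternatives chosen after seeing the data, counting the Ptn cluster as fibroblast-like gave 7 for ADT in Trp53-deleted libraries and 5 for deletion with ADT, and leaving out the cell with the most UMIs gave 2 for ADT in Trp53-intact luminal progenitor-like cells (Areg and Hbegf). The calls of Areg in luminal progenitor-like cells held under 13 of 13 alternatives in each of its 3 comparisons, as did Hbegf with ADT in the Trp53-intact libraries. Egfr with ADT in Trp53-deleted fibroblast-like cells held under 15 of 15 (-2.67 to -1.20). The Nrg1 call in fibroblast-like cells held under 11 of 14 and was lost with a pseudocount of 10 CPM, with per-cell means and with clusters weighted equally. In fibroblast-like cells the Areg call was lost with neutrophil-like CPM taken off, and the Hbegf calls for ADT in Trp53-intact libraries and for deletion with ADT each held under 13 of 15, lost in the Wif1 cluster alone and with clusters weighted equally. The Ereg call in fibroblast-like cells was lost with per-cell means and without its top cell. Genes under 5 CPM are limited by depth.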
